A study of Homo sapiens with 18 samples.

Results

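Protocadherins form the largest group of the cadherin superfamily of adhesion proteins, and the genes described here are the protein-coding genes whose symbol begins with PCDH. GENCODE 29 holds 66 such genes. Of these 64 had an identifier among the 63677 genes counted in the files, and PCDHGB5 and PCDH20 were not analysed here. A gene was kept when at least 3 of the 18 libraries had 5 or more reads for it, which left 33 protocadherin genes among 17297 genes tested. They comprised 4 of 15 alpha genes, 11 of 16 beta genes, 10 of 21 gamma genes and 8 of 12 single genes. Just inside the threshold, PCDHB7, PCDHGA5 and PCDH8 had exactly 3 libraries with 5 or more reads. Just outside it, PCDHB6, PCDHGA4, PCDHGA6 and PCDHGA8 had 2 such libraries. Of the 31 genes not kept, 8 had 0 reads in all 18 libraries: PCDHA4, PCDHA6, PCDHA7, PCDHA9, PCDHA13, PCDHB1, PCDHB16 and PCDH15.

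The libraries were made from HAP1 cells, a human line with a nearly haploid genome that descends from leukaemia cells. The labels name a parental line (WT), a line with an ATG7 knockout (ATG7KO) and a line with an RB1CC1 knockout (RB1CC1KO). ATG7 is an enzyme needed for lipid conjugation of autophagy proteins, and RB1CC1 (FIP200) belongs to the kinase complex that starts autophagy. Each line was grown in full medium, IMDM with 10% fetal calf serum, or starved of amino acids and serum in Earle's balanced salt solution (EBSS) for 6 h, with 3 libraries in each of the 6 groups. Each genotype is 1 cell line, so the knockout and the history of the line cannot be told apart in any comparison between lines. The labels call the 3 libraries of a group biological replicates, and all p-values rest on the spread between them.

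Clustered protocadherins are encoded by the alpha, beta and gamma gene clusters at 5q31, next to each other on chromosome 5. Each variable exon has its own promoter, and neurons choose small combinations of these promoters, by chromatin looping through CTCF and cohesin, which gives a neuron a surface identity used in self-recognition. Alpha and gamma transcripts join their variable exon to shared constant exons, whereas each beta gene is a self-contained coding exon. The single genes lie outside the clusters and act as adhesion molecules in brain and other tissues. PCDH7, PCDH17, PCDH18 and PCDH19 are on other chromosomes, whereas PCDH1 and PCDH12 are on chromosome 5 beyond the gamma cluster.

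Reads in genes ranged from 4892072 in ATG7KO EBSS replicate 3 to 26005942 in RB1CC1KO-labelled EBSS replicate 2. ATG7 RNA averaged 4.08 CPM (read counts scaled to library size by the TMM method) in ATG7KO cells in full medium against 15.7 in WT, so it was reduced but present. After EBSS the reduction was smaller, with 10.1 CPM in ATG7KO against 16.0 in WT. RB1CC1 RNA was not reduced in the line labelled RB1CC1KO, with 157 CPM against 106 in WT, and these libraries are therefore called RB1CC1KO-labelled. Protein was not measured here, and this RNA level does not show whether the knockout removed it. The marker list for neural and glial cells summed to 850 to 891 CPM in WT, 866 to 1014 in ATG7KO and 739 to 840 in RB1CC1KO-labelled libraries in full medium. It holds 23 matched genes, of which 2 had 0 reads in every library. The list of haematopoietic, epithelial and fibroblast markers, with 3 of 25 genes at 0 in every library, summed to 896 to 947, 1119 to 1186 and 760 to 807 CPM. In full medium 7 of 15 tested neural and glial markers were called between ATG7KO and WT, 5 higher and 2 lower in ATG7KO. Of the other list 12 of 17 tested markers were called, 3 higher and 9 lower, although its sum was higher in ATG7KO. Between RB1CC1KO-labelled cells and WT 9 of 15 (5 higher, 4 lower) and 10 of 17 (1 higher, 9 lower) were called. Of all genes tested, 8.98% were called in the first comparison (4.16% higher, 4.82% lower) and 14.4% in the second (6.08% higher, 8.28% lower). The part of these differences between lines in the protocadherin results was not tested.

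Most promoters of the beta genes carried a shared sequence, GGCGCT, called the box here. The promoters of 4 beta genes on in WT are shown, as PCDHB5 was nearly absent in ATG7KO cells while other beta genes were on there. RefSeq promoter windows, from 250 bases before to 50 after the annotated gene start, were found for 57 of the protocadherin genes, 31 of them kept. These letters, searched on both strands, include the CGCT core of an element known from clustered protocadherin promoters. A window without these exact letters may still hold that element. The sequence GGCGCT was present in 13 of 14 beta windows. It was present in 8 of 19 gamma, 1 of 13 alpha and 2 of 11 single windows, and in 21.7% of all 35116 RefSeq windows of this length. Among beta windows it was in 10 of 10 kept and 3 of 4 not kept genes, each time on the plus strand. In the alpha gene PCDHAC1, and in most gamma windows with a match, it was on the minus strand. Each line gives the 200 bases upstream of the RefSeq gene start (GRCh38.p14, plus strand, 5′ to 3′), with the box in capitals.
PCDHB3, chr5:141100273-141100472: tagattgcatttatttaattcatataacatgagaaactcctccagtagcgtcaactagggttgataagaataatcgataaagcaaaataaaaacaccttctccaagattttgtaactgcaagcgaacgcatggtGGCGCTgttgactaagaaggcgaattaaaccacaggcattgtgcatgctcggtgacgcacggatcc
PCDHB5, chr5:141135006-141135205: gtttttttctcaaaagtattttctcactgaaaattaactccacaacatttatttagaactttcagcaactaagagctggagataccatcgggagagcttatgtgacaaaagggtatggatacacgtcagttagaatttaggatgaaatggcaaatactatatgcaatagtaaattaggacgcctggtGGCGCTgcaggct
PCDHB13, chr5:141213719-141213918: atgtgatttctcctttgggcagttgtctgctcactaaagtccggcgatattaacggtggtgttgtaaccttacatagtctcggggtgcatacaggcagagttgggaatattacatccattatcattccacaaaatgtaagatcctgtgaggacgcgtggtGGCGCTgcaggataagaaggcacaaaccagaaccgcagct
PCDHB14, chr5:141223143-141223342: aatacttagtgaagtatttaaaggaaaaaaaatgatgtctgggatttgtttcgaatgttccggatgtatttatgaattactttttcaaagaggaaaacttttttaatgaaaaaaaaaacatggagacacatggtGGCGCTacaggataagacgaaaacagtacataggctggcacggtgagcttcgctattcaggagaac
The box began 13 bases before the RefSeq start in PCDHB5, 40 in PCDHB13 and 66 in PCDHB3 and PCDHB14. In PCDHB8, which was on in every line in full medium and is not shown, it began 1 base after that start. A match describes the letters only.

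Shared sequence limits how reads can be assigned within the family. In GENCODE 29 the kept alpha genes PCDHAC1 and PCDHAC2 share 2866 exonic bases with other genes on the same strand, and PCDHGC3 shares 2181. A read from these 3′ exons belongs to several genes and, under default HTSeq counting, would be left out as ambiguous. The counting mode is not given in the sources used here. Of all 75-base windows, the read length, 47.7% of PCDHAC2 and 37.4% of PCDHGC3 also occur in another gene. For PCDHB5 17.9% of windows do. An annotated antisense gene overlaps 501 of its 3408 bases and was not analysed here. PCDHB13 shares 18.6% of windows, mainly with other beta genes. Of PCDH11X windows 42.9% also occur in another gene, its Y copy PCDH11Y among them, and 0.236% occur outside protocadherin coding genes. PCDH7, PCDH18 and PCDH19 share none.

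Levels per length were led by the single genes PCDH18 and PCDH1. The scale is RPKM over the exonic bases that no other gene on the same strand shares, averaged over the 6 groups. PCDH18, a delta-class protocadherin, stood highest at 18.4 RPKM, followed by PCDH1, an epithelial adhesion protocadherin, at 2.98. The highest clustered genes were PCDHGC3, a C-type gamma gene, at 2.5 and PCDHGA10 at 1.84. PCDH19, whose loss causes an epilepsy, followed at 1.44, PCDH17 at 0.848, PCDHAC2, a C-type alpha gene, at 0.747 and PCDHB5 at 0.704 RPKM. The next beta genes were PCDHB13 at 0.303 and PCDHB3 at 0.296 RPKM. The single genes PCDH11X, at 0.120 RPKM, and PCDH7 and PCDH8 lay below many clustered genes.

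A member was called on in a group when all 3 libraries had at least 0.5 CPM, and near silent when each was under 0.1 CPM. In full medium 20 of 33 members were on in WT, 16 in ATG7KO and 18 in RB1CC1KO-labelled cells, and none was near silent in any of the 3 groups. The 14 members on in all 3 lines were PCDHA3 and PCDHAC2 of the alpha cluster, PCDHB3, PCDHB8, PCDHB13 and PCDHB14 of the beta cluster, PCDHGB2, PCDHGA10 and PCDHGC3 of the gamma cluster, and PCDH1, PCDH9, PCDH17, PCDH18 and PCDH19. On in WT and RB1CC1KO-labelled but not in ATG7KO cells were PCDHB5, PCDH7 and PCDH11X. PCDHGA11 was on in WT and ATG7KO, PCDHB10 and PCDHGB7 in WT alone, PCDHB2 in ATG7KO alone and PCDHAC1 in RB1CC1KO-labelled cells alone. The differences of PCDHGA11, PCDHB10 and PCDHGB7 between lines in full medium were not called, so their place rests on the 0.5 CPM threshold. The other 11 members were on in no line.

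**Figure D1:**
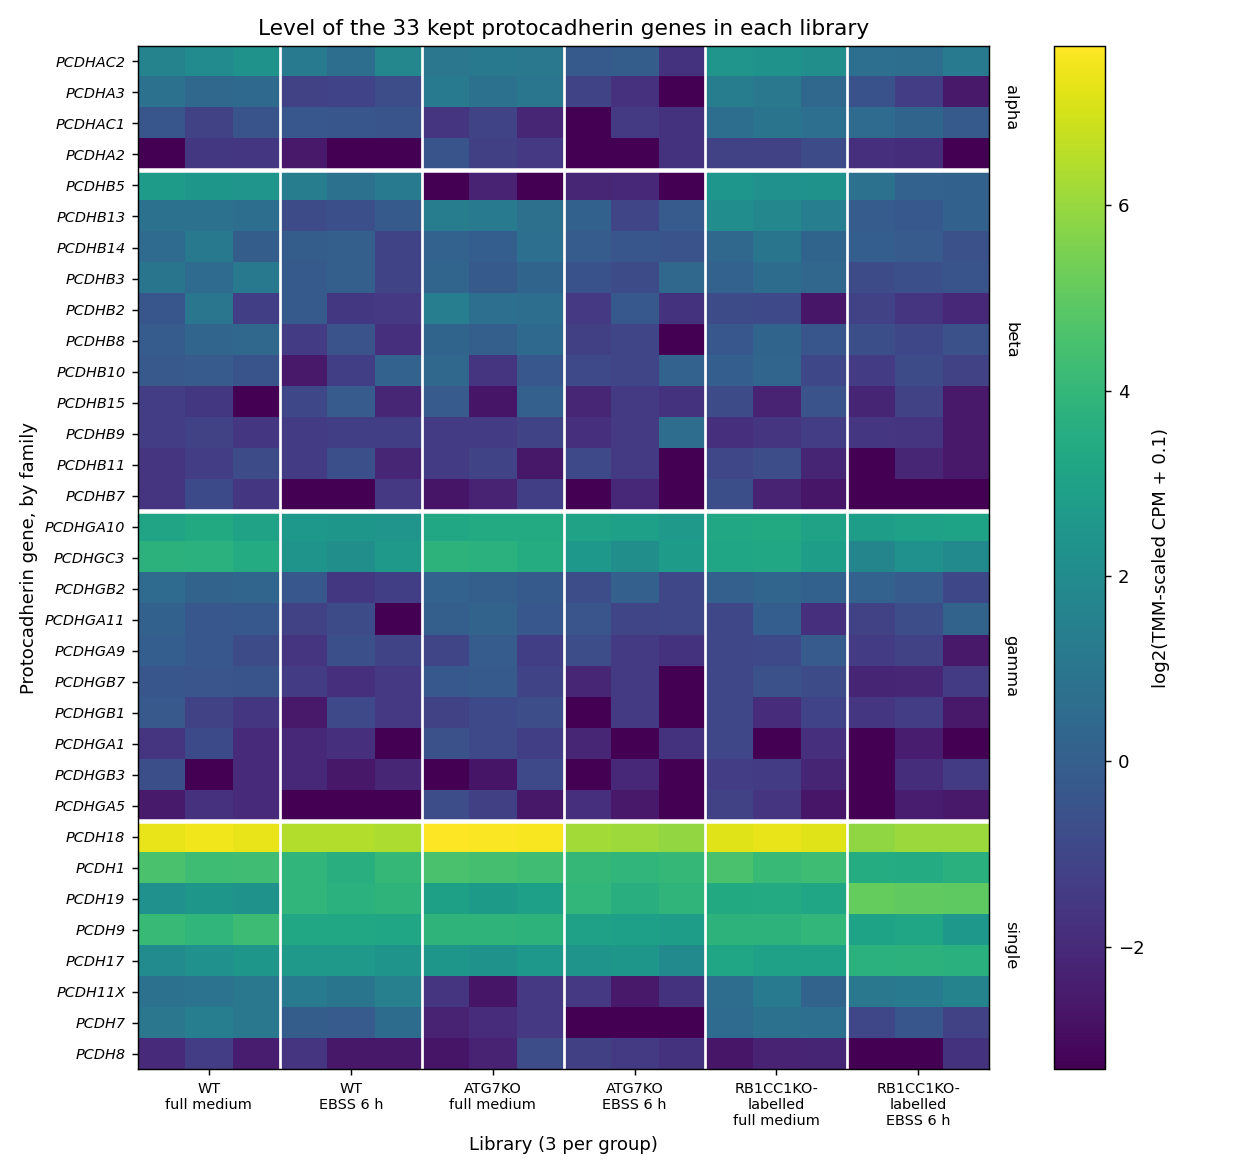
Heat map of the 33 kept protocadherin genes (vertical axis, grouped as alpha, beta, gamma and single and ordered by mean level) in the 18 libraries (horizontal axis, 3 per group). Colour is log2 of TMM-scaled CPM plus 0.1, per gene and not per length. The PCDHB5, PCDH7 and PCDH11X lines are dark in the 6 ATG7KO libraries, with at most 0.133 CPM of PCDHB5 in any of them, and PCDH18 is brightest in every library.

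Between ATG7KO and WT cells in full medium, PCDHB5 was nearly absent and PCDH7 and PCDH11X were low in ATG7KO, while all 3 were on in WT. In all, 2 of 33 members were called higher and 4 lower (edgeR's quasi-likelihood test, Benjamini-Hochberg adjusted p below 0.05), against 8.98% of all genes called, 4.16% higher and 4.82% lower. Of the 4 lower members, PCDHB5, PCDH7 and PCDH11X passed the read filter only through the other lines. The count of lower members is therefore partly fixed by that choice. The median log2 fold change of the members was 0.03, and that of all genes 0.01.

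PCDHB5 (ENSG00000113209, chromosome 5, 141135218 to 141138625, plus strand, GRCh38) is a single-exon beta gene that encodes a homophilic adhesion protein. In WT in full medium it had 90, 112 and 67 reads, or 6.68, 5.62 and 5.30 CPM. In ATG7KO cells it had 0, 2 and 0 reads, or 0, 0.109 and 0 CPM. In RB1CC1KO-labelled cells it had 93, 84 and 82 reads, or 5.50, 4.70 and 4.98 CPM. Every WT and RB1CC1KO-labelled library was above every ATG7KO library, and no group overlapped with ATG7KO. Scaled to depth, PCDHB5 was 151-fold higher in WT than in ATG7KO (95% counting interval 41.4 to 1252, from 269 against 2 reads), with adjusted p = 3.2942e-16. Against RB1CC1KO-labelled cells the ratio was 130.5 (interval 35.8 to 1084), with adjusted p = 7.1529e-16. Without ATG7KO replicate 2, which held both reads, PCDHB5 was at least 64.9-fold higher in WT, with 3 counts over the group as the floor, and the call held without each library. None of the 6 ATG7KO libraries had 5 or more reads of PCDHB5, PCDH7 or PCDH11X, so these members passed the read filter through the other lines. A member that passed only where it was high tends to be lower in ATG7KO by that choice. Between RB1CC1KO-labelled and WT cells, whose libraries overlapped, the difference was -0.21 ± 0.20 (adjusted p = 0.54787) and was not called.

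In ATG7KO against WT in full medium PCDHB5 was the sole beta member of 11 called, although without WT replicate 2 PCDHB2 was also called (log2 fold change 1.88, adjusted p = 0.0227). The beta genes PCDHB3, PCDHB8, PCDHB13 and PCDHB14 were on in both lines. PCDHB5 gave 38.4% of all beta reads in WT and 35.0% in RB1CC1KO-labelled cells. The summed level of the beta genes was 14.9 ± 1.68 CPM (SD, n = 3) in WT, 9.60 ± 1.80 in ATG7KO and 14.4 ± 1.59 in RB1CC1KO-labelled cells in full medium. The largest share of the beta reads in ATG7KO cells, 21.7%, came from PCDHB13. Of the 22 tested neighbours of the clusters at 5q31, 1 was called higher and 2 lower in ATG7KO: SPRY4, a receptor tyrosine kinase signalling inhibitor, differed by 2.66 ± 0.37 on the log2 scale (SE), DIAPH1 by -0.32 ± 0.06 and RELL2 by -0.51 ± 0.13. The share over all genes was 4.16% higher and 4.82% lower.

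PCDH7 (ENSG00000169851, chromosome 4, 30720415 to 31146805, plus strand, GRCh38) is a delta-class protocadherin. It stood at 2.00, 2.51 and 2.06 CPM in WT, 0.113, 0.164 and 0.256 in ATG7KO and 1.36, 1.62 and 1.52 in RB1CC1KO-labelled cells in full medium. The ATG7KO libraries were the lowest and overlapped with neither line. It differed by -3.60 ± 0.43 (log2, SE) between ATG7KO and WT (adjusted p = 2.5601e-08) and by 3.05 ± 0.45 between RB1CC1KO-labelled and ATG7KO cells (adjusted p = 1.1252e-06).

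PCDH11X (ENSG00000102290, chromosome X, 91779261 to 92623230, plus strand, GRCh38), the X-linked copy of a delta-class pair, stood at 1.63, 1.76 and 2.06 CPM in WT. In ATG7KO cells it had 0.226, 0.0546 and 0.256 CPM, and in RB1CC1KO-labelled cells 1.42, 2.18 and 1.03. The 3 ATG7KO libraries again lay below the other 6. The differences were -3.31 ± 0.44 against WT (adjusted p = 2.842e-07) and 3.10 ± 0.45 for RB1CC1KO-labelled against ATG7KO (adjusted p = 7.0336e-07), and they rest on reads of a gene with the shared windows given above.

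The C-type alpha gene PCDHAC2 was at 2.97, 3.86 and 4.90 CPM in WT, 1.98, 2.13 and 2.05 in ATG7KO and 5.26, 4.87 and 4.32 in RB1CC1KO-labelled cells. The 3 ATG7KO libraries lay below those of both other lines. It was lower in ATG7KO than in WT, with a log2 difference of -0.92 ± 0.24 (adjusted p = 0.0093247), and this call was lost without WT replicate 3 (adjusted p = 0.0888). It was higher in RB1CC1KO-labelled than in ATG7KO cells by 1.23 ± 0.23 (adjusted p = 9.2989e-05).

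Among the members higher in ATG7KO than in WT, PCDH18 was at 162, 179 and 166 CPM in WT and 211, 201 and 197 in ATG7KO, a difference of 0.26 ± 0.07 (adjusted p = 0.005805). The groups did not overlap, but without ATG7KO replicate 1 the adjusted p was 0.0526. PCDH19 was at 4.75, 5.57 and 5.06 CPM in WT and 7.69, 6.39 and 7.36 in ATG7KO, a difference of 0.46 ± 0.14 (adjusted p = 0.024579). That call was lost without WT replicate 1 (adjusted p = 0.117), WT replicate 3 (0.0720), ATG7KO replicate 1 (0.125) or ATG7KO replicate 3 (0.0708). Calls that held without any one library were those of PCDHB5, PCDH7 and PCDH11X.

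**Figure D2:**
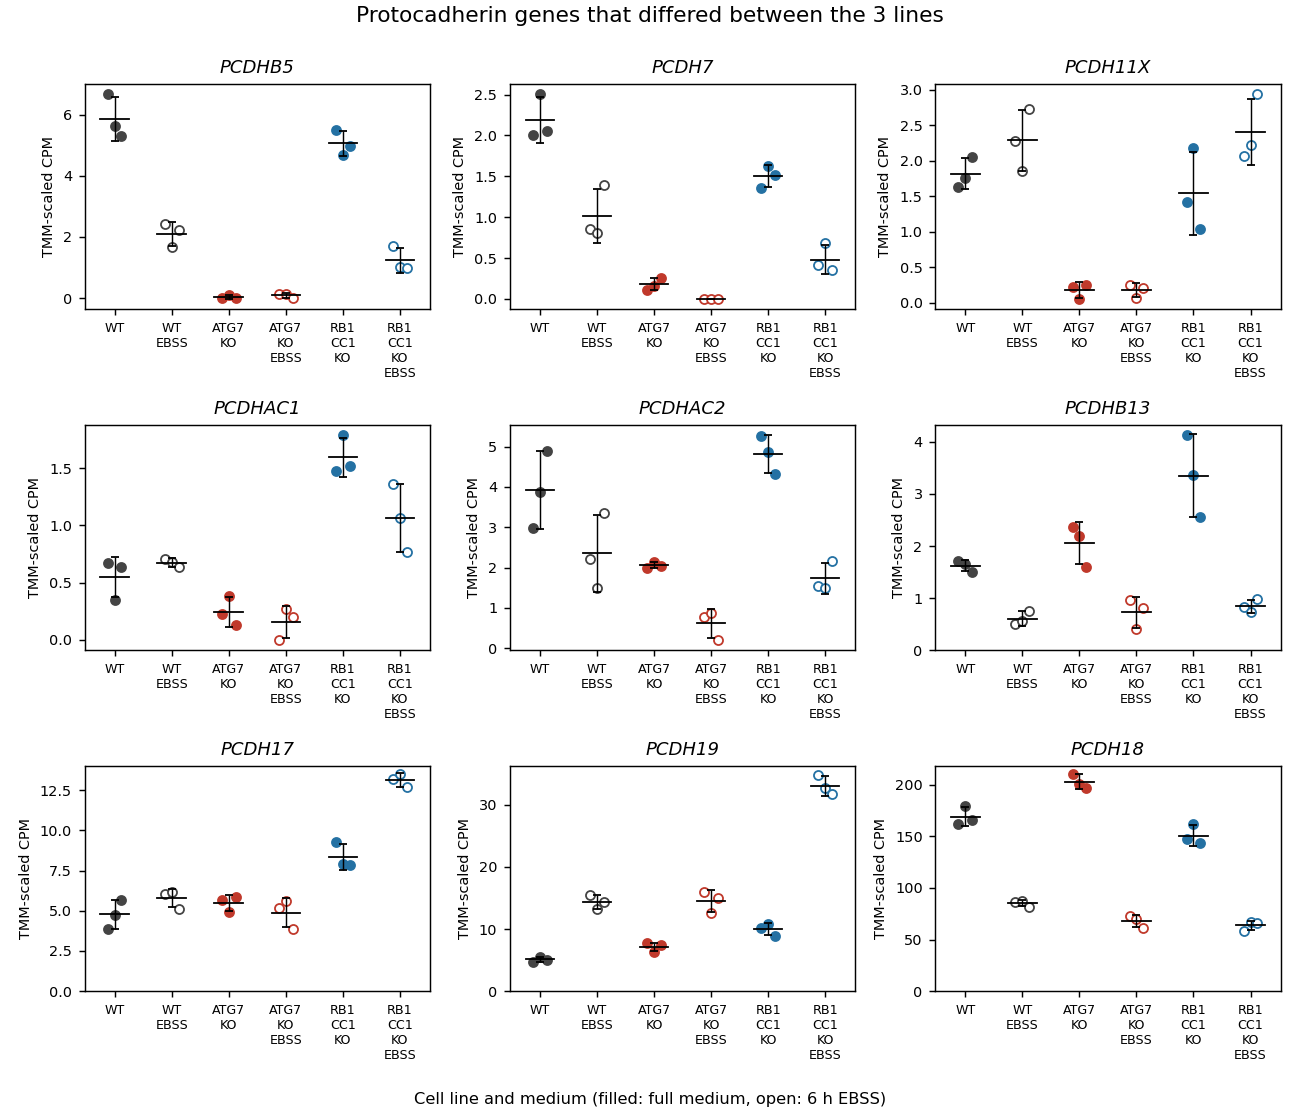
TMM-scaled CPM (vertical axes, from 0, with a different range in each panel) of 9 protocadherin genes in each library of the 6 groups (horizontal axis). Points are libraries, filled for full medium and open for EBSS, the horizontal bars are means and the error bars SD over 3 libraries. PCDHB5, PCDH7 and PCDH11X are low in ATG7KO libraries, at most 0.257 CPM in each, PCDH17 and PCDH19 are highest in the RB1CC1KO-labelled line, and PCDH18 falls in every line after EBSS.

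Between RB1CC1KO-labelled and WT cells in full medium 5 members were called. PCDH19, PCDH17, PCDHB13 and PCDHAC1 were higher and PCDHGC3 was lower, 5 of 33 members against 14.4% of all genes called, 6.08% higher and 8.28% lower. The median log2 fold change of the members was -0.19, against 0.00385 over all genes, with 20 of 33 below zero. PCDH19 was at 10.2, 10.7 and 8.94 CPM in RB1CC1KO-labelled cells, above all 6 libraries of the other lines. It differed from WT by 0.95 ± 0.13 (log2, SE, adjusted p = 5.7487e-07) and from ATG7KO by 0.48 ± 0.12 (adjusted p = 0.0034935). PCDH17, a delta-class protocadherin, was at 3.86, 4.76 and 5.69 CPM in WT, 5.65, 4.91 and 5.88 in ATG7KO and 9.28, 7.89 and 7.84 in RB1CC1KO-labelled cells. The WT and ATG7KO libraries overlapped and the RB1CC1KO-labelled libraries lay above both. It was higher by 0.81 ± 0.15 against WT (adjusted p = 0.00010704) and 0.61 ± 0.15 against ATG7KO (adjusted p = 0.0017607).

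In the beta cluster PCDHB13 was at 1.71, 1.66 and 1.5 CPM in WT, 2.37, 2.18 and 1.60 in ATG7KO and 4.14, 3.36 and 2.55 in RB1CC1KO-labelled cells. All 3 RB1CC1KO-labelled libraries were above those of both other lines. Against WT it was higher by 1.04 ± 0.26 (adjusted p = 0.0033025). Against ATG7KO it was higher by 0.70 ± 0.24 (adjusted p = 0.038043), a call that was lost with DESeq2 (adjusted p = 0.0840) and without ATG7KO replicates 2 (0.0725) or 3 (0.179) or RB1CC1KO-labelled replicates 1 (0.231) or 2 (0.0835). PCDHAC1, a C-type alpha gene, was at 0.668, 0.351 and 0.633 CPM in WT, 0.226, 0.382 and 0.128 in ATG7KO and 1.48, 1.79 and 1.52 in RB1CC1KO-labelled cells. The RB1CC1KO-labelled libraries were the highest, and the WT and ATG7KO libraries overlapped. It differed by 1.58 ± 0.40 from WT (adjusted p = 0.0042305, and 0.0528 without WT replicate 2) and by 2.63 ± 0.44 from ATG7KO (adjusted p = 1.2702e-05).

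PCDHGC3 was at 13.6, 13 and 11 CPM in WT, 14.2, 13 and 11.3 in ATG7KO and 9.28, 9.40 and 6.99 in RB1CC1KO-labelled cells. The RB1CC1KO-labelled libraries were the lowest, and WT and ATG7KO overlapped. It was lower, with a log2 difference of -0.55 ± 0.15 against WT (adjusted p = 0.0075839), a call lost without RB1CC1KO-labelled replicate 3 (adjusted p = 0.0854), and with one of -0.58 ± 0.15 against ATG7KO (adjusted p = 0.0027867). PCDHGA10, the other leading gamma gene, was at 8.69, 10.4 and 8.22 CPM in WT, 9.72, 10.6 and 10.6 in ATG7KO and 9.46, 10.4 and 8.02 in RB1CC1KO-labelled cells, and no pair of lines passed the test in full medium.

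The direct comparison of the knockout-labelled lines in full medium called 8 members higher and 3 lower in RB1CC1KO-labelled cells, against 17.7% of all genes called, 8.09% higher and 9.65% lower. Besides those given above, PCDHB2 was at 2.54, 1.53 and 1.47 CPM in ATG7KO and 0.473, 0.448 and 0.0608 in RB1CC1KO-labelled cells, with 0.668, 1.91 and 0.316 in WT. The ATG7KO and RB1CC1KO-labelled libraries did not overlap, and the WT libraries spanned both. It differed by -2.46 ± 0.53 (adjusted p = 0.00081822). PCDH18 was lower in RB1CC1KO-labelled cells, at 147, 162 and 143 CPM, with a difference of -0.43 ± 0.07 (adjusted p = 2.3424e-06). Both comparisons with ATG7KO share its 3 libraries. PCDHB5, PCDH7, PCDH11X and PCDHAC1, among the 8 members called higher, passed the read filter only through the other lines, which partly fixes that count.

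Genes outside the family gave a background to these differences. Of the 27 tested other cadherin superfamily genes, 4 were called between ATG7KO and WT and 13 between RB1CC1KO-labelled and WT cells in full medium, against 8.98% and 14.4% of all genes. CDH13, encoding a cadherin anchored by a lipid, had 0 CPM in both knockout-labelled lines and 1.504 in WT. CDH3, P-cadherin, averaged 13 CPM in WT, 25.1 in ATG7KO and 0.456 in RB1CC1KO-labelled cells. Of the 33 tested chromatin regulators known to act on the clusters, 1 was called higher and 2 lower in ATG7KO, and 3 higher and 1 lower in RB1CC1KO-labelled cells. Of all genes 4.16% were higher and 4.82% lower in the first of these comparisons, and 6.08% and 8.28% in the second. WAPL, which releases cohesin from DNA, was higher in ATG7KO than in WT by 0.70 ± 0.06 (log2, SE, adjusted p = 1.6125e-11), and TET1, a DNA demethylase, was lower, with a log2 difference of -0.31 ± 0.08. TASOR, a subunit of a silencing complex, was lower in RB1CC1KO-labelled cells, with a difference of -0.37 ± 0.07, and RAD21, a cohesin subunit, was higher by 0.23 ± 0.07. Of 24 tested partners in protocadherin signalling, RET differed by 0.41 ± 0.09 in ATG7KO and FYN, a tyrosine kinase, by 0.53 ± 0.07 in RB1CC1KO-labelled cells. The part of these genes in the protocadherin differences was not tested.

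After 6 h of EBSS most called members were lower in all 3 lines. In WT cells 18 members were called lower and 1 higher, against 58.5% of all genes called and 30.3% called lower. In ATG7KO cells 14 were lower and 1 higher (57.4% of all genes called, 30.7% lower), and in RB1CC1KO-labelled cells 14 were lower and 2 higher (59.5% called, 30.2% lower). The median log2 fold change of the members was -0.99, -0.92 and -0.97 in the 3 lines, whereas that of all genes was -0.05, -0.07 and -0.04. These medians were the same with the 1 member in each line that had no reads after EBSS set to its counting bound. The read filter bears on these counts: 8 members passed it in full medium alone but not in EBSS alone, and 0 the other way round. A member that passed only where it was high tends to be lower after EBSS by that choice. Of the 24 members that passed in each medium alone, 16 were called lower and 1 higher in WT, 11 and 1 in ATG7KO, and 11 and 2 in RB1CC1KO-labelled cells, with median log2 fold changes of -0.91, -0.71 and -0.86. Called lower in all 3 lines were 9 members, 27.3% of those tested against 21.7% of all genes: PCDHA3, PCDHAC2, PCDHB13, PCDHGB7, PCDHGC3, PCDH1, PCDH7, PCDH9 and PCDH18. The call of PCDHGB7 rested on few reads and was lost in each line without some library, with adjusted p of 0.0538 and 0.0800 (WT full medium 2 and EBSS 2), 0.0597 (ATG7KO EBSS 1), and 0.0706, 0.0737 and 0.103 (RB1CC1KO-labelled full medium 2, EBSS 1 and EBSS 2). PCDH19 alone was called higher in all 3, 3.03% of members against 21.2% of all genes. Without each library in turn, 12 of the 18 calls of lower level held in WT, 11 of 14 in ATG7KO and 9 of 14 in RB1CC1KO-labelled cells. In bulk RNA, fewer cells that express a gene and less RNA per cell cannot be told apart.

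The falls were spread over the families. Called lower in WT were 2 of 4 alpha, 6 of 11 beta, 6 of 10 gamma and 4 of 8 single members. In ATG7KO the counts were 3, 3, 4 and 4, and in RB1CC1KO-labelled cells 2, 6, 2 and 4. The summed alpha level went from 6.13 to 3.55 CPM in WT, from 4.78 to 1.07 in ATG7KO and from 8.98 to 3.33 in RB1CC1KO-labelled cells. The summed beta level went from 14.9 to 6.74, from 9.60 to 4.81 and from 14.4 to 5.10 CPM, and the summed gamma level from 26.7 to 12.8, from 28.3 to 15.3 and from 22.2 to 14.5 CPM. For each of these 3 clusters no starved library of a line reached a fed library of that line. The number of members on after EBSS was 12 in WT, 8 in ATG7KO and 13 in RB1CC1KO-labelled cells, and 7 were on in all 3: PCDHGA10, PCDHGC3, PCDH1, PCDH9, PCDH17, PCDH18 and PCDH19. The ATG7KO count after EBSS moved with the rule: it was 13 at 0.25 CPM and 14 when the mean of the 3 libraries had to reach 0.5 CPM. These looser rules add members in the other lines too. For example, starved PCDHB3 averaged 0.697 CPM in WT and 0.552 in RB1CC1KO-labelled cells, with lowest libraries at 0.380 and 0.472. The counts of those lines under the looser rules are not given here, so 13 and 14 are not comparable with their 12 and 13.

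Among clustered genes PCDHA3 gave the largest fall of those called in all 3 lines. It went from 1.63, 1.20 and 1.27 to 0.355, 0.372 and 0.507 CPM in WT, from 2.32, 1.64 and 1.92 to 0.385, 0.200 and 0 in ATG7KO, and from 2.42, 2.07 and 1.22 to 0.590, 0.298 and 0.0700 in RB1CC1KO-labelled cells. No starved library overlapped with a fed one of its line. The log2 changes were -1.70 ± 0.43 (adjusted p = 0.00089), -2.93 ± 0.48 (adjusted p = 1.7321e-06) and -2.51 ± 0.41 (adjusted p = 1.1201e-06). PCDHB5 went to 2.41, 1.67 and 2.22 CPM in WT and to 1.71, 1.02 and 0.980 in RB1CC1KO-labelled cells, again without overlap. These were changes of -1.48 ± 0.23 (adjusted p = 3.8252e-07) and -2.03 ± 0.24 (adjusted p = 1.2823e-09). In starved ATG7KO cells PCDHB5 had 2, 2 and 0 reads, and at this depth the change from 2 reads in full medium was not called (ratio 2.91, counting interval 0.417 to 32.1). Both fed reads came from replicate 2. Without it the fed group had none, PCDHB5 was at least 1.25-fold higher after EBSS, and the change was called (adjusted p = 0.0454).

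The changes of PCDHB13 were -1.41 ± 0.34 in WT, -1.54 ± 0.34 in ATG7KO and -2.01 ± 0.28 in RB1CC1KO-labelled cells. After EBSS its libraries lay at 0.497, 0.557 and 0.761 CPM, 0.963, 0.400 and 0.811, and 0.826, 0.724 and 0.980, and the 3 lines overlapped. PCDHB8 fell by 1.48 in WT and by 1.81 in ATG7KO on the log2 scale, with adjusted p of 0.0051189 and 0.0018544. PCDHGB2 went from 1.34, 1.05 and 1.11 to 0.710, 0.248 and 0.317 CPM in WT, a change of -1.46 ± 0.42 (adjusted p = 0.0031089), and its change was not called in the other lines. PCDHGC3 fell in all 3 lines, with changes of -1.27 ± 0.16, -1.25 ± 0.17 and -1.10 ± 0.17. PCDHAC2 changed by -0.73 ± 0.24 in WT (adjusted p = 0.0094855), where the groups overlapped and the call was lost without full medium replicate 3 (0.0751) or EBSS replicate 2 (log2 change -0.48, adjusted p = 0.108). In ATG7KO it changed by -1.49 ± 0.35 and in RB1CC1KO-labelled cells by -1.50 ± 0.24.

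**Figure D3:**
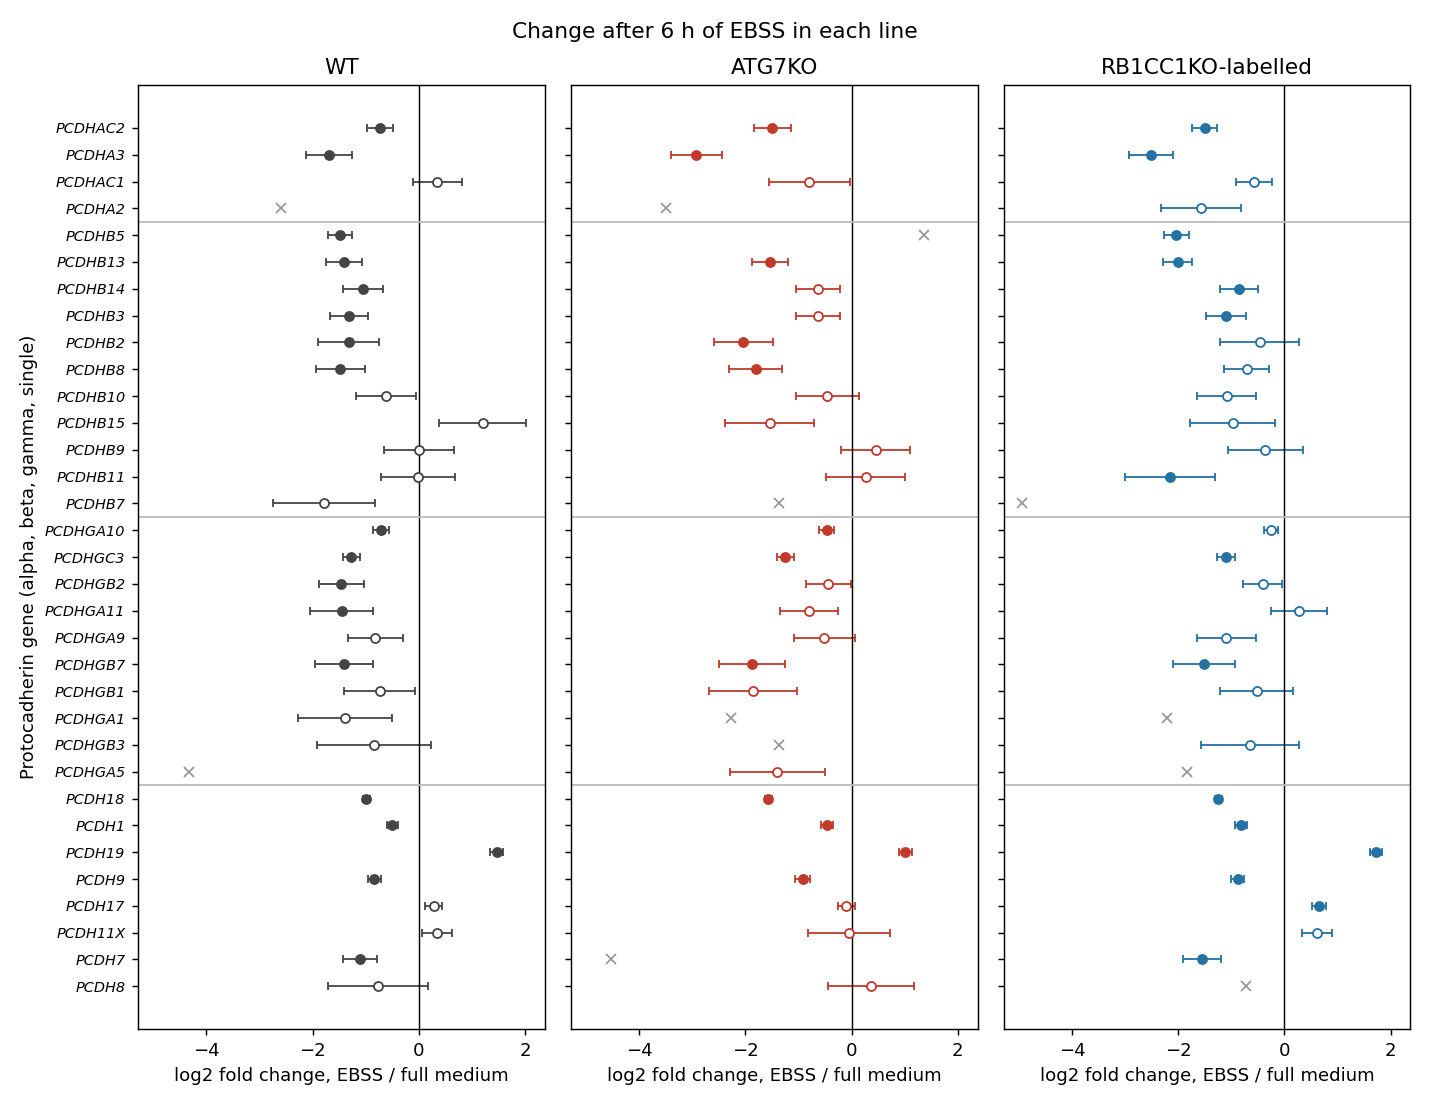
Log2 fold change of EBSS against full medium (horizontal axis) for the 33 kept protocadherin genes (vertical axis, by family and level) in WT, ATG7KO and RB1CC1KO-labelled cells. Filled points are called by edgeR's quasi-likelihood test, open points are not, bars are SE, and crosses mark fitted values of genes with 3 or fewer reads in 1 of the groups, whatever their call. Most filled points lie left of zero, and PCDH19 lies right of zero in all 3 lines.

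Several calls of low genes rest on very few reads. PCDHA2, PCDHB7, PCDHGA1, PCDHGA5 and PCDHGB7 had no EBSS library with 5 or more reads, so they passed the filter through full medium alone, and their falls are partly fixed by that choice. PCDHGA5 had 7 reads in WT in full medium and none after EBSS, at least 2.33-fold higher in full medium with 3 counts over the group as the floor. Its call (adjusted p = 0.023317) was lost without full medium replicate 2 (0.0766) or EBSS replicate 1 (0.0513), 2 (0.0565) or 3 (0.0547). PCDHB7 had 12 reads in RB1CC1KO-labelled cells in full medium and none after EBSS (at least 4.27-fold higher), and its call (adjusted p = 0.0062825) was lost without full medium replicate 1 (0.0942). PCDHA2 had 21 reads in ATG7KO in full medium and 1 after EBSS (ratio 14.4, counting interval 2.32 to 597), a call (adjusted p = 0.0075956) lost without EBSS replicate 1 (0.0632) or 2 (0.0584). PCDHGA1 had 23 and 3 reads in ATG7KO (ratio 5.27, interval 1.59 to 27.4), and its call (adjusted p = 0.035937) was lost with DESeq2 (0.0810) and without full medium replicates 1 (0.0951) or 2 (0.0570) or EBSS replicates 1 (0.0596) or 2 (0.203). PCDHB2 was called lower in WT with overlapping groups, and its log2 change of -1.32 became -0.25 without full medium replicate 2 (adjusted p = 0.774). In ATG7KO, where groups did not overlap, PCDHB2 changed by -2.04 ± 0.55 (adjusted p = 0.0022047). PCDH7 had 9 reads in ATG7KO in full medium and none after EBSS, at least 2.06-fold higher in full medium (adjusted p = 0.0081575).

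The single genes gave both falls and rises. PCDH18 had 162, 179 and 166 CPM in fed WT cells and 86.1, 87.4 and 81.8 after EBSS, 211, 201 and 197 against 72.5, 69.4 and 61.4 in ATG7KO, and 147, 162 and 143 against 58.5, 66.9 and 65.7 in RB1CC1KO-labelled cells. All starved libraries lay below all fed ones. The changes were -0.99 ± 0.07 (adjusted p = 3.6276e-16), -1.56 ± 0.07 (adjusted p = 5.1664e-22) and -1.24 ± 0.07 (adjusted p = 2.7733e-19). PCDH9 changed by -0.84 ± 0.12, -0.92 ± 0.13 and -0.88 ± 0.12, and PCDH1 changed by -0.50 ± 0.11, -0.47 ± 0.11 and -0.81 ± 0.11. PCDH7 changed by -1.11 ± 0.32 in WT (adjusted p = 0.0027581) and by -1.56 ± 0.36 in RB1CC1KO-labelled cells (adjusted p = 0.00026912).

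PCDH19 moved the other way. It rose to 15.4, 13.2 and 14.3 CPM in WT, 16.0, 12.5 and 15.0 in ATG7KO and 34.8, 32.7 and 31.6 in RB1CC1KO-labelled cells, above every fed library of the same line. The changes were 1.47 ± 0.13 (adjusted p = 5.3247e-13), 1.02 ± 0.13 (adjusted p = 3.9888e-09) and 1.73 ± 0.11 (adjusted p = 1.3041e-17). PCDH17 went to 6.03, 6.19 and 5.14 CPM in WT, 5.20, 5.60 and 3.85 in ATG7KO and 13.2, 13.5 and 12.7 in RB1CC1KO-labelled cells. It rose by 0.66 ± 0.13 in the RB1CC1KO-labelled line (adjusted p = 3.9522e-05) and was not called in the others, but the difference of its response from WT was not called either (0.38 ± 0.21, adjusted p = 0.31796). The call state of PCDH17 in WT depended on 1 library, with adjusted p = 0.0493 without full medium replicate 3. PCDH11X was at 2.27, 1.86 and 2.73 CPM in starved WT, 0.257, 0.0666 and 0.203 in ATG7KO and 2.07, 2.21 and 2.94 in RB1CC1KO-labelled cells, and its change passed the test in no line, although without full medium replicate 2 it was called in RB1CC1KO-labelled cells (adjusted p = 0.0109).

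The response to EBSS differed between ATG7KO and WT for PCDH18 alone among the 33 members, against 1.03% of all genes called, 0.254% with a higher and 0.775% with a lower response. Of these genes 24.7% were higher under TMM scaling and 36.8% under upper quartile scaling. Its fall was larger in ATG7KO, with a difference of -0.58 ± 0.10 on the log2 scale (adjusted p = 0.00051745). In the difference of responses between RB1CC1KO-labelled and WT cells, 0 of 33 members were called by edgeR or DESeq2, against 6.75% of all genes, 2.84% with a higher and 3.90% with a lower response, and 4 had an unadjusted p below 0.05. Without RB1CC1KO-labelled EBSS replicate 2, PCDH18 was called in that comparison (-0.31, adjusted p = 0.0404). Fed and starved libraries of WT enter both comparisons.

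Between lines after EBSS, ATG7KO differed from WT in 6 members, none higher, against 11.4% of all genes called, 4.49% higher and 6.94% lower. Of the genes called, 39.3% were higher under TMM scaling and 50.2% under upper quartile scaling. PCDHB5 (-4.13 ± 0.50, adjusted p = 3.4273e-08), PCDH11X (-3.69 ± 0.48, adjusted p = 1.5881e-07) and PCDHAC2 (-1.69 ± 0.35, adjusted p = 0.00047313) were lower. PCDH7 had no reads in the 3 starved ATG7KO libraries and 47 in WT, so it was at least 12.1-fold higher in WT (adjusted p = 1.681e-06). PCDHB5, PCDH7, PCDH11X and PCDHAC1 passed the read filter only through the other lines, which partly fixes the count of lower members. PCDH18 was lower, with a log2 difference of -0.31 ± 0.07 (adjusted p = 0.0017822), the opposite of full medium. PCDHAC1 was lower, with a log2 difference of -2.19 ± 0.65 (adjusted p = 0.018982), but of -1.40 without ATG7KO replicate 1, where the call was lost (adjusted p = 0.183). Without ATG7KO replicate 2 that group had 1 read, and PCDHAC1 was higher in WT by a ratio of 13.8 (counting interval 2.30 to 563).

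RB1CC1KO-labelled cells after EBSS differed from WT in 3 members called higher and 4 lower, against 28.1% of all genes called. PCDH19 was higher by 1.21 ± 0.10 (adjusted p = 3.1286e-12) and PCDH17 by 1.18 ± 0.14 (adjusted p = 9.263e-09), and PCDH18 was lower, with a log2 difference of -0.42 ± 0.07 (adjusted p = 8.9941e-06). These 3 calls held without each library. The other 4 did not: PCDHGA10 (0.47, adjusted p = 0.010788) was lost without RB1CC1KO-labelled replicate 3 (0.0526). PCDH1 (-0.35, adjusted p = 0.021281) was lost without WT replicates 1 (0.0760) or 3 (0.130) or RB1CC1KO-labelled replicate 2 (0.0788). PCDHB5 (-0.76, adjusted p = 0.032972) was lost without WT replicates 1 (0.125) or 3 (0.0852) or RB1CC1KO-labelled replicates 2 (0.142) or 3 (0.0987) and when only the compared groups were fitted (0.0608). PCDH7 (-1.0, adjusted p = 0.047801) was lost with DESeq2 (0.0839), without a filter (0.0931), with only the compared groups (0.0880), with a replicate block (0.0516) and without WT replicates 1 (0.0530) or 3 (0.266) or RB1CC1KO-labelled replicates 1 (0.124) or 3 (0.130). Against ATG7KO after EBSS, 7 members were called higher and 1 lower, against 26.6% of all genes, and all 8 calls held without each library. They were PCDHAC1, PCDHAC2, PCDHB5, PCDH7, PCDH11X, PCDH17 and PCDH19, and the lower one was PCDH1. Of these, PCDHB5, PCDH7, PCDH11X and PCDHAC1 passed the read filter only through the other lines, which partly fixes the count of higher members. PCDH7, with 28 against 0 reads, was at least 6.06-fold higher in RB1CC1KO-labelled cells.

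The starved cells also differed in the lists around the family. Of the 33 chromatin regulators, 24 were higher and 2 lower in WT and in ATG7KO, and 25 higher and 2 lower in RB1CC1KO-labelled cells. Of all genes 28.2% were higher and 30.3% lower in WT, 26.7% and 30.7% in ATG7KO and 29.3% and 30.2% in RB1CC1KO-labelled cells, which is the background for all list counts after EBSS. TET3, a DNA demethylase, rose by 1.30 ± 0.06 in WT, EZH2, the Polycomb methyltransferase, by 1.29 ± 0.07, STAG2, a cohesin subunit, by 0.97 ± 0.07, and RAD21 by 0.91 ± 0.07. Of 24 signalling partners, 14 were higher and 3 lower in WT, with FYN up by 2.53 ± 0.07. Of the 27 other cadherin genes, 8 were higher and 3 lower in WT, 10 and 3 in ATG7KO and 10 and 2 in RB1CC1KO-labelled cells. CELSR3, a seven-pass cadherin, rose by 1.23 ± 0.12 in WT. Of the 22 neighbours at 5q31, 4 were higher and 8 lower in WT, with a change of TMCO6 of -1.61 ± 0.14. The 335 tested protein-coding genes with a single exon block, the structure of all beta genes, include the kept beta genes. Median log2 changes of the 335 were -0.46, -0.63 and -0.70 in the 3 lines, lower than all genes. The part of that structure in the fall of the beta genes was not tested. Neural and glial markers after EBSS summed to 863 to 985 CPM in WT, 882 to 947 in ATG7KO and 776 to 835 in RB1CC1KO-labelled cells. The other marker list summed to 1236 to 1276, 1458 to 1553 and 1192 to 1291 CPM, above its level in full medium in each line. Most of its called genes went the other way. Of its 17 tested genes 2 were called higher and 6 lower in WT, 1 and 7 in ATG7KO, and 4 and 5 in RB1CC1KO-labelled cells. Its median log2 changes were -0.087, -0.206 and -0.086. The part of these markers in the EBSS results was not tested.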

How the data were processed

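RNA was bead-selected polyadenylated RNA, sequenced as 75 bp single-end reads with a directional kit, per the labels' protocols. The authors deposited whole-number read counts per Ensembl gene, 1 table per library, without normalization. Tools listed in the submitters' processing notes are STAR 2.4.2a, HTSeq 0.6.1p1, Picard, DESeq2 and edgeR, with the build GRCh37 (hg19). How strand was handled is not given in the sources used here. Lines of reads in no gene (9.39 to 15.1% of reads) or in several (2.08 to 2.42%) were left out.

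Names, lengths and exon sharing came from GENCODE 29 (GRCh38, another build), which matched 52526 of 63677 identifiers, and promoters from RefSeq (GRCh38.p14). Counts were analysed with edgeR 4.0.16 in R 4.3.3: genes with 5 or more reads in at least 3 libraries, TMM scaling, and 1 quasi-likelihood fit of 6 group means to all 18 libraries, giving 11 comparisons. All adjusted p-values are Benjamini-Hochberg values over all genes tested, called below 0.05. The SE is the log2 fold change divided by the square root of F, not a coefficient's SE. The common biological coefficient of variation was 6.77%. Where a group had 0 reads, the fold is a bound computed from 3 counts over the group. With 1 to 3 reads the ratio has an exact 95% counting interval, which covers counting error only. DESeq2 1.42.0, other scalings and filters, a replicate block, fits of the compared groups only and leaving out each library were the alternatives. The model was also run on simulated counts, and the result is not given here. No library repeated another: replicates differed beyond sampling noise (chi-square per degree of freedom from 2.32 to 10.5).

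Chosen for naming were called members whose groups do not overlap, up to 8 in each direction between lines in full medium and 5 for EBSS. Added were the leading members per length in each family, PCDHB5, and up to 4 called genes with the smallest p from each other list. Values of every library are given for only part of them, not for PCDH1, PCDHB3 or PCDHB8 for example. The gamma gene PCDHGA9 is not described. Other calls were named after their values were seen. The members and the 6 lists were chosen with earlier results of these data known.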

Additional observations from a re-analysis of the deposited data

Results flagged for a closer look

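The response of PCDH18 to EBSS differed between ATG7KO and WT cells. The difference of the log2 fold changes was -0.58 ± 0.10 (SE), with adjusted p = 0.00051745 in edgeR's quasi-likelihood test. PCDH18 was higher in ATG7KO than in WT in full medium and lower after EBSS, with no overlap between the libraries in either medium. The call held without each library in turn.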

How the results depend on the processing

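No log2 fold change of a called member changed sign under upper quartile or RLE scaling, DESeq2, other filters, fits of the compared groups only, the replicate block or leaving out a library. Over all 33 members and 11 comparisons, 2355 of 2376 values stayed on their side of the threshold with all libraries kept, 14 lost their call and 7 gained one. With a library left out, 2491 of 2574 stayed, 58 lost and 25 gained a call. Leaving out a library gave 4 to 7 members called between RB1CC1KO-labelled and WT cells after EBSS (7 with all, 4 without RB1CC1KO-labelled replicate 3) and 0 to 1 for the difference of their responses (0 with all, 1 without EBSS replicate 2). The members on in ATG7KO after EBSS numbered 8, and 13 at 0.25 CPM in all libraries or 14 at a mean of 0.5 CPM. The other lines also gain members under these looser rules, and their counts under them are not given here. Leaving out each library for the counts of members on, and counting EBSS calls only over members that pass the read filter in each medium alone, were chosen after seeing the data. Upper quartile scaling moved the median of all genes after EBSS from -0.05 to -0.16 in WT, from -0.07 to -0.15 in ATG7KO and from -0.04 to -0.15 in RB1CC1KO-labelled cells, so changes after EBSS are read relative to all genes.

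The replicate numbers did not pair the libraries: correlations of same-numbered deviations ran from -0.22 to 0.421, and not every library correlated best with its own number. With a replicate block 6 members were called between RB1CC1KO-labelled and WT cells in full medium (5 without it, PCDHB2 gained) and 6 after EBSS (7 without it, PCDH7 lost), and the other counts were equal.

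Some calls of low members depended on the processing. PCDHB2 between RB1CC1KO-labelled and WT cells in full medium was not called in the main edgeR fit. It was called by edgeR without a filter on low genes (adjusted p = 0.0092193), with only the compared groups (0.0396) and with the replicate block (0.0248). Leaving out WT replicate 1 (0.0499) or WT replicate 3 (0.0113) also gave a call. Its WT libraries stood at 0.668, 1.91 and 0.316 CPM.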
